A study of Mus musculus with 9 samples.

Results

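The genes described here make, receive and place the cyclic AMP (cAMP) signal inside granulosa cells, the somatic cells that line the ovarian follicle. They are 4 adenylyl cyclase genes (*Adcy3*, *Adcy6*, *Adcy7* and *Adcy9*), 3 regulatory subunit genes of protein kinase A (PKA; *Prkar1a*, *Prkar2a* and *Prkar2b*), 2 catalytic subunit genes (*Prkaca* and *Prkacb*) and the anchoring protein gene *Akap12*. They were taken by symbol from the expression tables, and all 10 were found among 25059 gene identifiers. All 10 also reached the level required for testing, which was 1 FPKM or more in at least 3 libraries and was met by 14535 genes. FPKM counts sequenced fragments per kilobase of transcript and relative to all mapped fragments, so that levels of different genes can be compared within a library.

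The cells came from the ovaries of Kunming mice at postnatal day 21 that had received 5 IU of PMSG, a gonadotropin that drives follicle growth. The 0 h group was taken 48 h after PMSG without further treatment. The 1 h and 6 h groups also received 5 IU of hCG, which acts on the luteinizing hormone receptor and starts ovulation, and were taken 1 or 6 h later. Each time has 3 libraries, 9 in all. Whether a group's 3 libraries are separate animals is not stated in the labels, so the p-values measure only the spread between libraries, which may be technical. Hours after hCG, hours after PMSG and the time of day cannot be told apart, because no group without hCG was taken at a matched hour.

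Receptors for follicle-stimulating and luteinizing hormone couple to the stimulatory G protein, which activates adenylyl cyclases to make cAMP from ATP. PKA is held inactive as a complex of regulatory and catalytic subunits, and binding of cAMP to the regulatory subunits frees the catalytic subunits. Type I regulatory subunits are mostly soluble, whereas type II subunits are mostly held near their targets by A-kinase anchoring proteins. Among the regulatory subunits, RII beta (the *Prkar2b* product) is known as a gene product that follicle-stimulating hormone induces in granulosa cells. A route by which PKA reaches genes is phosphorylation of CREB, which binds the cAMP response element TGACGTCA or its core TGACG.

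RefSeq promoter windows (GRCm38.p6, 250 bases before to 50 bases after a start) were found for 8 of the 10 genes, 20 windows in all. *Adcy6* and *Akap12* were not matched. The full element TGACGTCA, searched on both strands, lay in 2 overlapping windows of *Prkar1a* and in no window of the other 7 genes. It lay at chr11:109650900-109650907, which is 49 to 42 bases before the RefSeq start at 109650949 and 38 to 45 bases after another start at 109650862. Over all windows of the same length, 588 of 32851 (1.79%) held TGACGTCA. The core TGACG, or CGTCA on the other strand, was in 8 of the 20 windows and in 6 of the 8 genes, against 20.8% of all windows and 23.0% of all genes. The gene shares are not alike, because the 8 genes had 20 windows (6 for *Prkar1a*) and all 27025 genes had 32851. The 2 overlapping *Prkar1a* windows, which share the full element, are counted separately among the 8. Each full element also counts as a match to the core. The stretches below show the element of *Prkar1a* and the sequence ahead of the starts of *Prkar1a*, *Prkar2b* and *Adcy9*. On the log2(FPKM + 1) scale *Prkar1a* had the largest rise of the members and *Prkar2b* and *Adcy9* the 2 largest falls, while *Adcy7* rose more in fold. All are written 5' to 3' along the gene's own strand, with matches to TGACGTCA, TGACG or CGTCA in capitals.
Prkar1a element, plus strand, chr11:109650889-109650918: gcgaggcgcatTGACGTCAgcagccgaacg
Prkar1a upstream, plus strand, chr11:109650699-109650861: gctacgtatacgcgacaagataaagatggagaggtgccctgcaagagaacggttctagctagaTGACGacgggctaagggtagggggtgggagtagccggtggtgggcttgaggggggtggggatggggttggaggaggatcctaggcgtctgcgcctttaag
Prkar2b upstream, minus strand, chr12:32061297-32061527: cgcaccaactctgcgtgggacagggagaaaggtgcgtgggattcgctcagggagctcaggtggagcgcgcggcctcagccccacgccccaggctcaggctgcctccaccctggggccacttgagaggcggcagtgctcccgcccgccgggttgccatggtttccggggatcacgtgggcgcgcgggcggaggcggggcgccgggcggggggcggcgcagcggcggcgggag
Adcy9 upstream, minus strand, chr16:4420499-4420748: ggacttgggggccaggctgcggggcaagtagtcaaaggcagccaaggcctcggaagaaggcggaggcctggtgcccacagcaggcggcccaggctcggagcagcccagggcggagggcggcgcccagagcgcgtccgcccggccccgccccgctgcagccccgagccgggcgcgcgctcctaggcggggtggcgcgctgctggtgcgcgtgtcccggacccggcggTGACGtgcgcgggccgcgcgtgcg
The *Prkar1a* stretches hold the full element and a separate TGACG, the *Adcy9* stretch holds a single TGACG, and the *Prkar2b* stretch holds no match. A match describes the letters only, and a window without a match says nothing about binding.

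Library sums lay between 491920 and 570986 FPKM, and 13587 to 13862 genes reached 1 FPKM or more. The depth in reads is unknown. Libraries of a time correlated at 0.982 to 0.988 across genes and libraries of different times at 0.874 to 0.972, where genes are not independent replicates. The granulosa markers *Fshr* and *Foxl2* were detected in every library, at 19.4 or more and 27.9 or more FPKM. Defining markers of other cell types were present. The highest values were 17.5 FPKM for *Zp3* and 0.976 for *Ddx4* (oocytes), 12.1 for *Cdh5* and 4.67 for *Pecam1* (endothelium), 1.83 for *Csf1r* and 1.20 for *Ptprc* (leukocytes), and 27.1 for *Col1a1* (stroma). *Cyp17a1* (theca cells) had a mean of 123 ± 32.3, 193 ± 70.5 and 21.9 ± 5.04 FPKM at 0, 1 and 6 h (SD, n = 3).

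At 1 h, 1 of the 10 genes was called (limma, Benjamini-Hochberg adjusted p below 0.05), against 15.7% of all genes tested. It was higher, against 9.68% of all genes called higher, and none was lower, against 5.98%. At 6 h, 5 of 10 were called against 0 h, where 56.6% of all genes were. These were 3 higher genes, against 28.8% of all genes, and 2 lower genes, against 27.9%. Between 1 and 6 h, 5 of 10 were called against 53.5% of all genes, with 2 higher (26.7% of all genes) and 3 lower (26.9%). The number of members called was therefore near the share of all genes at both later comparisons, and what follows concerns which genes moved and how far. The median log2 change of the 10 genes was 0.02 at 1 h, 0.17 at 6 h against 0 h and 0.04 at 6 h against 1 h, on the log2(FPKM + 1) scale. Over all genes tested it was -0.0046, -0.0041 and -0.00075. The comparisons share libraries, so they are set side by side and not correlated.

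**Figure D1:**
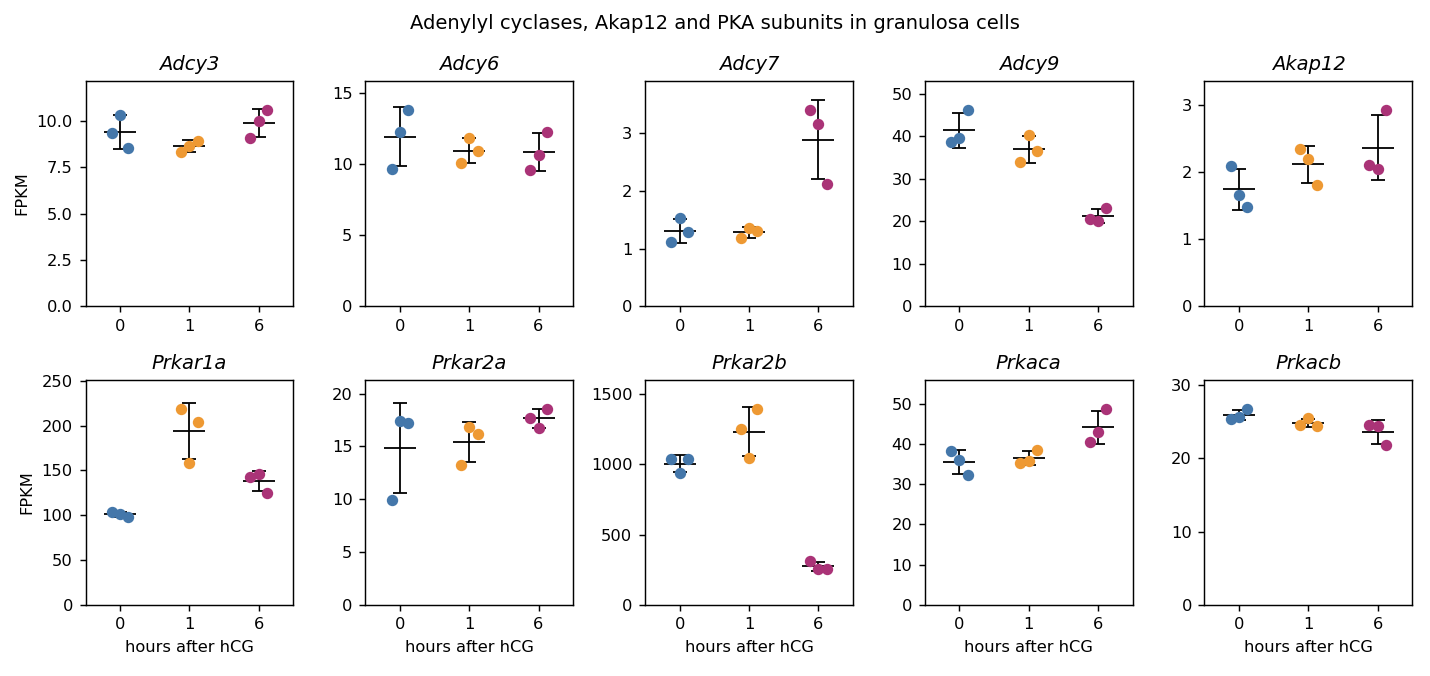
FPKM of the 10 genes (vertical axis of each panel, from 0) by hours after hCG (horizontal axis). Points are single libraries, the wide bar is the mean and the whiskers are the SD (n = 3). *Prkar2b* sits between 938 and 1394 FPKM at 0 and 1 h and between 253 and 312 FPKM at 6 h, and *Prkar1a* is highest at 1 h.

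Of the 10 members, the regulatory genes *Prkar2b* and *Prkar1a* had the highest levels at every time, and *Prkar2b* had the largest change in FPKM. *Prkar2b* (ENSMUSG00000002997, chromosome 12, 31958476 to 32061296, minus strand, mm10) stood at 1041, 938 and 1037 FPKM in the 3 libraries of 0 h. It stood at 1254, 1046 and 1394 FPKM at 1 h, and at 312, 253 and 258 FPKM at 6 h. Every 6 h library lay below every earlier library, and every 1 h library lay above every 0 h library, the nearest pair being 1046 and 1041 FPKM. The mean fell from 1005 ± 58.4 FPKM at 0 h to 274 ± 32.5 at 6 h (SD, n = 3), a level 3.67-fold lower, with a log2 change of -1.87 ± 0.12 (SE) and an adjusted p of 1.36e-06 by limma. Against 1 h the level at 6 h was 4.49-fold lower (log2 change -2.16 ± 0.12, limma adjusted p = 7.46e-07). The log2 change at 1 h was 0.28 ± 0.12 and was not called (limma adjusted p = 0.145). Without replicate 2 of 1 h, the lowest of its group, it was 0.40 and was called (limma adjusted p = 0.0368). With libraries scaled to a common sum it was 0.12 and not called (limma adjusted p = 0.448). Quantile normalization also gave 0.12 without a call (limma adjusted p = 0.463).

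*Prkar1a* (ENSMUSG00000020612, chromosome 11, 109649405 to 109669656, plus strand) encodes RI alpha, the main type I subunit of most tissues. Its level was 104, 101 and 98.3 FPKM in the libraries of 0 h, 218, 158 and 204 FPKM at 1 h, and 143, 145 and 125 FPKM at 6 h. The 3 times did not overlap, and all 1 h libraries lay above all 6 h libraries, which lay above all 0 h libraries. The mean rose 1.91-fold at 1 h, from 101 ± 2.87 to 194 ± 31.4 FPKM, with a log2 change of 0.92 ± 0.11 (limma adjusted p = 0.00056). It was the single member called at 1 h. At 6 h the mean was 138 ± 11.2 FPKM, still above 0 h by 0.44 ± 0.11 on the log2 scale (limma adjusted p = 0.0076) and below 1 h (log2 change -0.48 ± 0.11, limma adjusted p = 0.0056). With each library left out in turn, the log2 change at 1 h lay between 0.82 and 1.05 and remained called. It was smaller, yet called, with libraries scaled to a common sum (0.76) or quantile normalized (0.67). Under these 2 rescalings the log2 change at 6 h against 0 h was 0.35 and 0.28, and both were called.

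*Prkar2a* (ENSMUSG00000032601, chromosome 9, 108689314 to 108750436, plus strand) encodes RII alpha, the widely expressed type II subunit. Its libraries stood at 9.95, 17.4 and 17.2 FPKM at 0 h, 13.3, 16.8 and 16.2 FPKM at 1 h, and 17.7, 16.8 and 18.5 FPKM at 6 h. The times overlapped, and replicate 1 of 0 h was the lowest of all 9 libraries. No comparison was called. The log2 change was 0.27 ± 0.18 at 6 h against 0 h (limma adjusted p = 0.229) and lay between 0.03 and 0.40 when each library was left out in turn.

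The mixture of regulatory subunit transcripts differed between the times. *Prkar2b* made up 89.8, 88.6 and 89.8% of the summed FPKM of the 4 regulatory genes (*Prkar1a*, *Prkar1b*, *Prkar2a* and *Prkar2b*) at 0 h. It made up 84.3, 85.5 and 86.3% at 1 h and 64.9, 58.8 and 63.0% at 6 h. The share of *Prkar1a* was 9.01 ± 0.509, 13.4 ± 1.11 and 31.4 ± 2.14% at 0, 1 and 6 h (SD, n = 3). Both shares were without overlap between any pair of times. The ratio of *Prkar2b* to *Prkar1a* levels was 9.95 ± 0.628 at 0 h, 6.40 ± 0.580 at 1 h and 1.99 ± 0.228 by 6 h. With 3 libraries against 3, the two-sided exact permutation test cannot give a p below 0.1. That p was reached by all 3 comparisons of the ratio and of both shares, and 53 of the 75 tests of shares, sums and ratios reached it (Benjamini-Hochberg adjusted p = 0.1415).

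The summed level of the 4 regulatory genes lay between 1059 and 1159 FPKM at 0 h, 1224 and 1616 FPKM at 1 h, and 410.0 and 480.3 FPKM at 6 h, with no overlap between times. *Prkar1b*, which encodes the RI beta subunit best known from the nervous system, rose from 3.11 ± 0.652 to 10.3 ± 4.19 FPKM at 6 h (log2 change 1.42 ± 0.22, limma adjusted p = 0.00044). Its share of the regulatory sum was 0.277 ± 0.0518% at 0 h and 2.37 ± 1.01% at 6 h. Type II subunits together were 90.7 ± 0.525% of the regulatory sum at 0 h, 86.4 ± 1.12% at 1 h and 66.3 ± 3.15% at 6 h. Type II thus remained the larger class in all 9 libraries, with 62.7% as the lowest value.

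**Figure D2:**
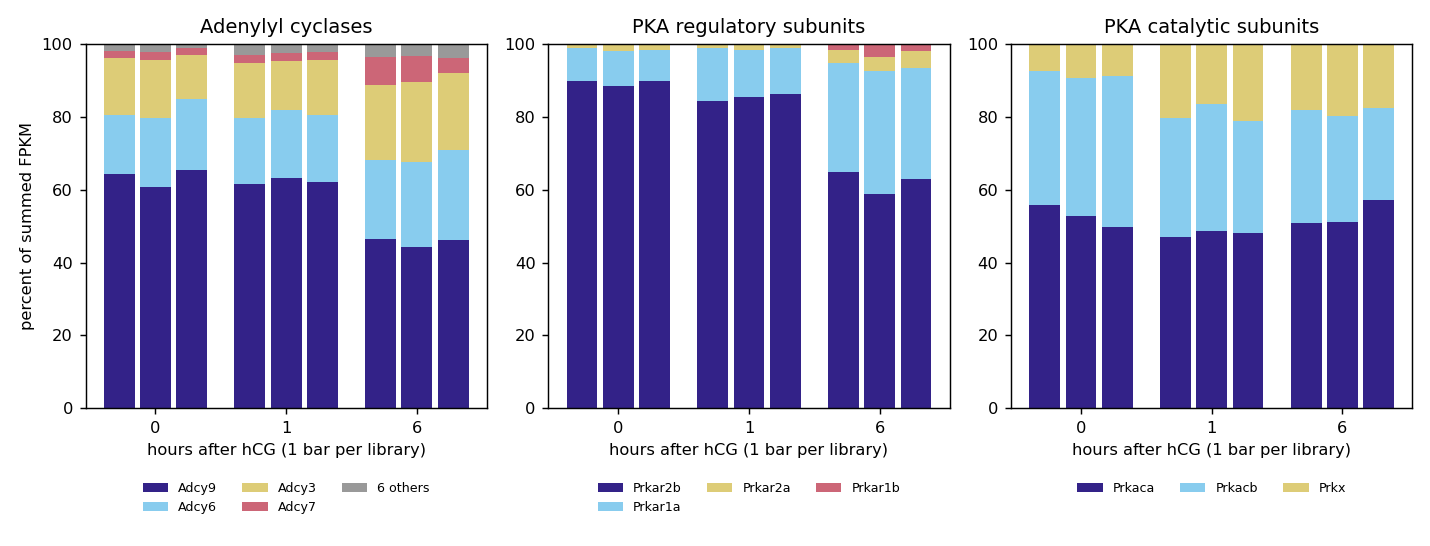
Percent of summed FPKM (vertical axis, 0 to 100) taken by each gene of a family in each library, grouped by hours after hCG (1 bar per library). The *Prkar2b* share is 88.6 to 89.8% at 0 h and 58.8 to 64.9% at 6 h, and the *Adcy9* share 60.8 to 65.4% and 44.3 to 46.4%, while *Prkaca* stays between 47.0 and 57.0% of the catalytic sum.

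Of the catalytic subunit genes among the members, *Prkaca* was called higher at 6 h and *Prkacb* was not called. *Prkaca* (ENSMUSG00000005469, chromosome 8, 83972993 to 83996443, plus strand) encodes C alpha, the main catalytic subunit of most tissues. Its level was 38.2, 35.9 and 32.2 FPKM at 0 h, 35.3, 35.8 and 38.5 FPKM at 1 h, and 40.5, 43.0 and 48.6 FPKM at 6 h. The 6 h libraries were all above the earlier ones, and the libraries of 0 and 1 h overlapped. The mean rose 1.24-fold at 6 h against 0 h (log2 change 0.31 ± 0.09, limma adjusted p = 0.0128) and 1.21-fold against 1 h (0.26 ± 0.09, limma adjusted p = 0.0279). Both calls were narrow. Against 0 h the call ended under quantile normalization (log2 change 0.20, limma adjusted p = 0.0758). Against 1 h it ended without replicate 1 or 2 of 1 h (limma adjusted p = 0.0839 and 0.0650) and without replicate 2 or 3 of 6 h (0.0560 and 0.0996).

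*Prkacb* (ENSMUSG00000005034, chromosome 3, 146729574 to 146812990, minus strand) encodes C beta. Its level was 25.3, 25.7 and 26.7 FPKM at 0 h, 24.6, 25.5 and 24.5 FPKM at 1 h, and 24.5, 24.5 and 21.8 FPKM at 6 h. In proportion to its level, this was the narrowest range of the 10 genes. The 6 h libraries lay below those of 0 h and overlapped those of 1 h. The log2 change at 6 h against 0 h was -0.13 ± 0.07 and was not called on the deposited scale (limma adjusted p = 0.12). It was called lower when libraries were scaled to a common sum (-0.22, limma adjusted p = 0.0271) or quantile normalized (-0.23, limma adjusted p = 0.0165).

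The third catalytic gene, *Prkx*, encodes a PKA-related kinase that type I regulatory subunits are known to bind. It rose from 5.67 ± 0.660 FPKM at 0 h to 14.8 ± 2.41 at 1 h and 15.3 ± 1.17 at 6 h, with log2 changes against 0 h of 1.24 ± 0.12 and 1.29 ± 0.12 (limma adjusted p = 0.00016 and 1.78e-05). *Prkx* made up 8.47 ± 1.05% of the summed catalytic FPKM at 0 h, 19.4 ± 2.45% at 1 h and 18.5 ± 1.19% at 6 h. *Prkacb* made up 38.7 ± 2.32, 32.7 ± 2.04 and 28.5 ± 2.72% at the same times, and *Prkaca* 52.8 ± 2.95, 48.0 ± 0.873 and 53.1 ± 3.45%. The catalytic sum was 67.0 ± 2.09 FPKM at 0 h, 76.1 ± 3.34 at 1 h and 83.0 ± 3.06 by 6 h.

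Regulatory transcripts were more abundant than catalytic transcripts at every time. The ratio of summed regulatory to summed catalytic FPKM was 16.9, 15.6 and 17.9 in the libraries of 0 h, 19.8, 16.7 and 20.2 at 1 h, and 6.04, 5.11 and 4.81 at 6 h. The 6 h libraries lay apart from all earlier ones, with exact permutation p = 0.1 against either time, and the libraries of 0 and 1 h overlapped (exact permutation p = 0.3). These are ratios of transcript levels, and subunit protein was not measured.

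Of the cyclases, *Adcy9* had the highest level and fell by 6 h. *Adcy9* (ENSMUSG00000005580, chromosome 16, 4287529 to 4420498, minus strand) encodes a widely expressed cyclase that is only weakly activated by forskolin. Its libraries stood at 38.6, 39.6 and 46.1 FPKM at 0 h, 33.9, 40.3 and 36.7 FPKM at 1 h, and 20.5, 20.1 and 23.1 FPKM at 6 h. All 6 h libraries were below all earlier ones, and 0 and 1 h overlapped. The level was 1.95-fold lower at 6 h than at 0 h (41.4 ± 4.09 to 21.3 ± 1.63 FPKM, log2 change -0.93 ± 0.09, limma adjusted p = 2.4e-05). It was 1.74-fold lower than at 1 h (log2 change -0.77 ± 0.09, limma adjusted p = 0.0001). The change at 1 h, -0.16 ± 0.09, was not called (limma adjusted p = 0.286).

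*Adcy7* (ENSMUSG00000031659, chromosome 8, 88272403 to 88329962, plus strand) moved the other way from a low level. This cyclase responds to G protein beta-gamma subunits and is well known from blood cells. It stood at 1.11, 1.53 and 1.28 FPKM at 0 h, 1.18, 1.36 and 1.30 FPKM at 1 h, and 3.40, 3.16 and 2.12 FPKM at 6 h. The 6 h libraries did not overlap the earlier ones, and replicate 3 was the lowest of them. The level rose 2.21-fold at 6 h against 0 h, and the log2 change of 0.74 ± 0.15 on the log2(FPKM + 1) scale understates this (limma adjusted p = 0.002). Against 1 h the log2 change was 0.76 ± 0.15 (limma adjusted p = 0.002).

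Leukocyte marker genes, summed over 6 genes, lay between 4.74 and 8.66 FPKM at 0 h, 6.74 and 9.23 FPKM at 1 h and 3.64 and 6.49 FPKM at 6 h. Of this list 2 genes could be tested, and neither was called in any comparison. Endothelial markers, summed over 6 genes, lay between 16.7 and 24.2 FPKM at 0 h and between 25.7 and 33.3 FPKM at 6 h, with 3 of 6 called higher against 28.8% of all genes. The part of either cell type in the *Adcy7* result was not tested. In bulk samples, fewer cells of a type and less RNA per cell cannot be told apart.

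*Adcy6* (ENSMUSG00000022994, chromosome 15, 98589973 to 98610076, minus strand), a cyclase inhibited by calcium, showed no called change. Its level was 9.66, 12.3 and 13.8 FPKM at 0 h, 10.03, 11.8 and 10.9 FPKM at 1 h, and 9.57, 10.6 and 12.2 FPKM at 6 h, with all times overlapping. The log2 change at 6 h against 0 h was -0.12 ± 0.13 (limma adjusted p = 0.462). *Adcy3* (ENSMUSG00000020654, chromosome 12, 4133103 to 4213525, plus strand), known as the cyclase of olfactory neurons and of primary cilia, stood at 9.36, 10.3 and 8.52 FPKM at 0 h. It stood at 8.31, 8.65 and 8.94 FPKM at 1 h and at 9.06, 10.01 and 10.6 FPKM at 6 h. The 6 h libraries lay above those of 1 h, yet the log2 change between them, 0.17 ± 0.09, was not called (limma adjusted p = 0.14). *Adcy3* shares a stretch of chromosome with *Cenpo* on the opposite strand (up to 15.0 FPKM), and since the labels do not say whether libraries kept strand, reads of the overlap could be counted for either gene.

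The other cyclase genes, *Adcy1*, *Adcy2*, *Adcy4*, *Adcy5*, *Adcy8* and *Adcy10*, all stayed below 1 FPKM in every library, and 0 of 6 could be tested. The highest was *Adcy5*, at no more than 0.949 FPKM. The 4 cyclase members held 98.2 ± 0.478% of summed cyclase FPKM at 0 h, 97.4 ± 0.485% at 1 h and 96.4 ± 0.167% at 6 h. That sum was 65.2 ± 5.35 FPKM at 0 h, 59.3 ± 4.29 at 1 h and 46.5 ± 3.03 by 6 h. The share of *Adcy9* was 63.6 ± 2.40% at 0 h, 62.3 ± 0.941% at 1 h and 45.7 ± 1.21% by 6 h. *Adcy6* went from 18.2 ± 1.77 to 23.2 ± 1.42%, *Adcy3* from 14.5 ± 2.12 to 21.2 ± 0.746% and *Adcy7* from 2.01 ± 0.295 to 6.30 ± 1.82% between 0 and 6 h. Each of these 4 shares separated the 6 h libraries from all others, with the smallest exact permutation p that the design allows, 0.1. For *Adcy3* and *Adcy6* the share was higher without a called change in level, over a lower cyclase sum.

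*Akap12* (ENSMUSG00000038587, chromosome 10, 4266380 to 4359470, plus strand) encodes gravin, a scaffold that holds PKA and protein kinase C near the plasma membrane. It was low in all libraries. Its level was 2.08, 1.66 and 1.47 FPKM at 0 h, 2.34, 2.18 and 1.81 FPKM at 1 h, and 2.11, 2.05 and 2.91 FPKM at 6 h. The 3 times overlapped. No comparison was called, and the log2 change at 6 h against 0 h was 0.29 ± 0.14 (limma adjusted p = 0.109).

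The order of levels was much the same at each time. At 0 h it ran from *Prkar2b* (1005 FPKM) through *Prkar1a* (101), *Adcy9* (41.4), *Prkaca* (35.4), *Prkacb* (25.9), *Prkar2a* (14.9), *Adcy6* (11.9), *Adcy3* (9.41) and *Akap12* (1.74) to *Adcy7* (1.31). Neighbours overlapped between *Prkar2a* and *Adcy6*, *Adcy6* and *Adcy3*, and *Akap12* and *Adcy7*, and the libraries of the other neighbours did not overlap. At 1 h the order was the same, and *Adcy9* and *Prkaca* were the pair of neighbours that overlapped. At 6 h *Adcy9* (21.3 FPKM) stood below *Prkaca* (44.1) and *Prkacb* (23.6), and *Adcy7* (2.89) stood above *Akap12* (2.36). The libraries of *Prkacb* and *Adcy9*, of *Adcy6* and *Adcy3*, and of *Adcy7* and *Akap12* overlapped at that time.

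The tables split most of these genes into several rows without transcript names. The number of rows matched the number of protein-coding transcripts in GENCODE M21 for 7 members, and *Adcy6*, *Prkaca* and *Akap12* had 1 row each. Rows are numbered by their mean level. Their values are described without a test, except where the fit across all genes was repeated with the most abundant row of each gene alone. For *Prkar1a* the rows did not move alike. Row 1 stood at 79.4 ± 2.35 FPKM at 0 h, 118 ± 14.3 at 1 h and 110 ± 8.72 at 6 h. Row 2 stood at 11.2, 9.86 and 6.53 FPKM in the libraries of 0 h, 57.7, 39.5 and 42.7 FPKM at 1 h, and 15.7, 15.3 and 11.2 FPKM at 6 h. All 1 h libraries of row 2 were above all others, and its mean at 1 h was 5.06-fold that at 0 h. Row 2 made up 9.07 ± 2.17% of the gene at 0 h, 24.1 ± 2.84% at 1 h and 10.1 ± 1.03% at 6 h.

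In that repeated fit, row 1 of *Prkar1a* gave a log2 change of 0.55 at 1 h, still called, and of -0.09 at 6 h against 1 h, which was not called (limma adjusted p = 0.444). The fall of *Prkar1a* between 1 and 6 h therefore lay mostly in rows 2 and 3, whose means dropped by 32.6 and 15.4 FPKM, whereas that of row 1 dropped by 7.68 FPKM. GENCODE places the starts of the 3 coding transcripts of *Prkar1a* at 109649405, 109650575 and 109650921 on chromosome 11, and the full element shown above lies just ahead of the last of these. The tables do not say which row belongs to which start.

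For *Prkar2b* all 3 rows were lower at 6 h. Row 1 went from 791 ± 53.4 to 193 ± 22.1 FPKM, row 2 from 180 ± 4.73 to 74.6 ± 7.15 FPKM and row 3 from 34.1 ± 6.47 to 6.89 ± 5.03 FPKM between 0 and 6 h. Row 2 was lower by less in proportion, and its share of the gene was 17.95 ± 0.728, 21.1 ± 2.52 and 27.3 ± 1.93% at 0, 1 and 6 h. Row 3 of *Adcy9* was at 12.4 and 14.9 FPKM in replicates 1 and 3 of 1 h but at 1.76 FPKM in replicate 2, where row 1 was at 25.8 FPKM against 12.3 and 11.2. The 2 rows thus differed in opposite directions between libraries of the same time, while the gene sum varied less. Each of the 3 *Adcy9* rows was lower in all 6 h libraries than in all 0 h libraries. The means went from 22.2 ± 5.93 to 13.1 ± 0.669 FPKM (row 1), 12.8 ± 0.148 to 7.86 ± 1.25 (row 2) and 6.41 ± 4.87 to 0.264 ± 0.399 (row 3). Against 1 h, rows 1 and 2 overlapped and row 3 was lower in all 6 h libraries. With row 1 of *Adcy9* alone, the change at 6 h was no longer called against 0 h (log2 change -0.68, limma adjusted p = 0.0714) or against 1 h (-0.21, limma adjusted p = 0.565). For *Adcy7* the leading row also differed between the libraries of 0 h, where row 1 took 0.205, 0.0316 and 99.7% of the gene, and row 1 took 75.7 to 84.4% at 6 h.

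**Figure D3:**
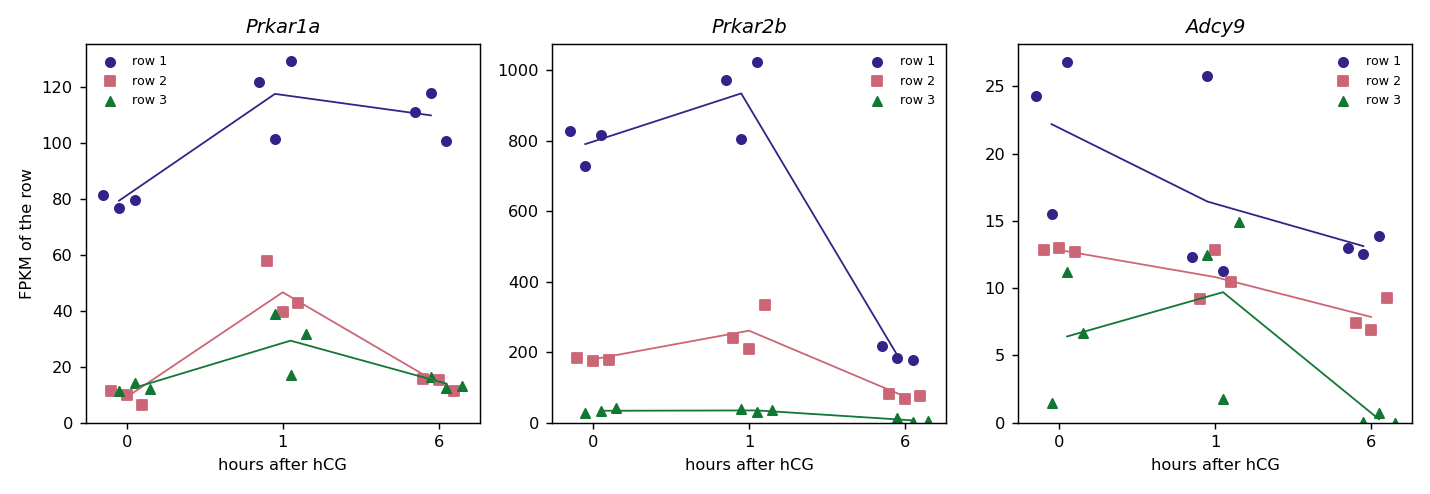
FPKM (vertical axis) of the 3 rows of *Prkar1a*, *Prkar2b* and *Adcy9* by hours after hCG (horizontal axis). Points are single libraries and lines join the means of each row. Row 2 of *Prkar1a* has a mean of 9.21 FPKM at 0 h, 46.6 FPKM at 1 h and 14.1 FPKM at 6 h, and rows 1 and 3 of *Adcy9* vary between libraries of 1 time.

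Other genes of the pathway were read from 5 lists of 52 genes, of which 37 could be tested. At 1 h, 8 of the 37 were higher, against 9.68% of all genes, and 0 lower, against 5.98%. At 6 h against 0 h, 19 were higher, against 28.8% of all genes, and 7 lower, against 27.9%. At 6 h against 1 h, 13 were higher, against 26.7% of all genes, and 7 lower, against 26.9%. The same background shares apply to the counts of each list below.

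Among the other PKA genes 4 of 5 could be tested. *Prkx* was higher at 1 h, *Prkx* and *Prkar1b* were higher at 6 h against 0 h, and *Pkig*, which encodes a PKA inhibitor peptide, was lower (25.7 ± 2.25 to 18.2 ± 3.25 FPKM, limma adjusted p = 0.0116). Between 1 and 6 h *Prkar1b* was higher (log2 change 1.71 ± 0.22) and none was lower. The median log2 change of this list was 0.04 at 1 h and 0.61 at 6 h against 0 h.

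Of 17 other anchoring protein genes 11 could be tested. At 1 h 2 were higher, at 6 h against 0 h 3 were higher and 3 lower, and at 6 h against 1 h 4 were higher and 3 lower. *Akap2* rose from 21.7 ± 0.654 FPKM at 0 h to 51.3 ± 14.5 at 1 h and 138 ± 8.49 at 6 h (log2 change 2.61 ± 0.15 at 6 h, limma adjusted p = 7.16e-07). *Akap2* overlaps *Pakap* on the same strand, so its reads may be shared and its level is uncertain. *Akap7* fell from 19.0 ± 0.866 to 6.28 ± 1.31 FPKM at 6 h (log2 change -1.47 ± 0.14, limma adjusted p = 1.91e-05). *Akap11*, whose product binds type II subunits, rose at 1 h from 25.4 ± 0.642 to 37.5 ± 6.63 FPKM (0.53 ± 0.12, limma adjusted p = 0.0144) and stood at 17.8 ± 1.08 FPKM at 6 h.

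Among 15 receptor and G protein genes 14 could be tested, with 3 higher and 0 lower at 1 h, 9 higher and 2 lower at 6 h against 0 h, and 6 higher and 2 lower at 6 h against 1 h. The 2 lower genes were the receptors themselves. *Fshr* fell from 93.0 ± 7.06 to 20.2 ± 0.861 FPKM at 6 h (log2 change -2.15 ± 0.11), and *Lhcgr* stood at 251 ± 28.5 FPKM at 0 h, 337 ± 71.6 at 1 h and 110 ± 29.0 at 6 h (-1.62 ± 0.20 against 1 h). *Rgs2*, which encodes a protein that speeds G protein inactivation, rose from 80.3 ± 12.2 to 574 ± 130 FPKM at 1 h (2.81 ± 0.17) and stood at 468 ± 24.8 FPKM at 6 h. *Gnai1*, an inhibitory G protein alpha subunit gene, went from 5.00 ± 0.876 to 7.40 ± 1.13 FPKM at 1 h (0.49 ± 0.13, limma adjusted p = 0.0305) and to 13.7 ± 0.799 FPKM at 6 h.

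Of 9 other effectors of cAMP 8 could be tested, with 2 higher at 1 h, 5 higher and 1 lower at 6 h against 0 h, and 2 higher and 2 lower at 6 h against 1 h. *Crem*, the cAMP response element modulator gene, rose from 10.5 ± 1.28 to 231 ± 65.9 FPKM at 1 h and was at 47.9 ± 8.55 FPKM at 6 h (log2 change -2.22 ± 0.20 from 1 h). All 1 h libraries of *Crem* lay above all others. *Rapgef4*, which encodes the cAMP-activated exchange factor EPAC2, fell from 23.8 ± 2.45 to 4.82 ± 1.11 FPKM at 6 h (-2.11 ± 0.14, limma adjusted p = 1.40e-06). *Bves*, a cAMP-binding membrane protein gene, rose from 1.79 ± 0.609 to 32.6 ± 4.06 FPKM (3.61 ± 0.16, limma adjusted p = 1.42e-07). The coactivator gene *Crebbp* changed by 0.27 ± 0.06 at 1 h (limma adjusted p = 0.0115).

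**Figure D4:**
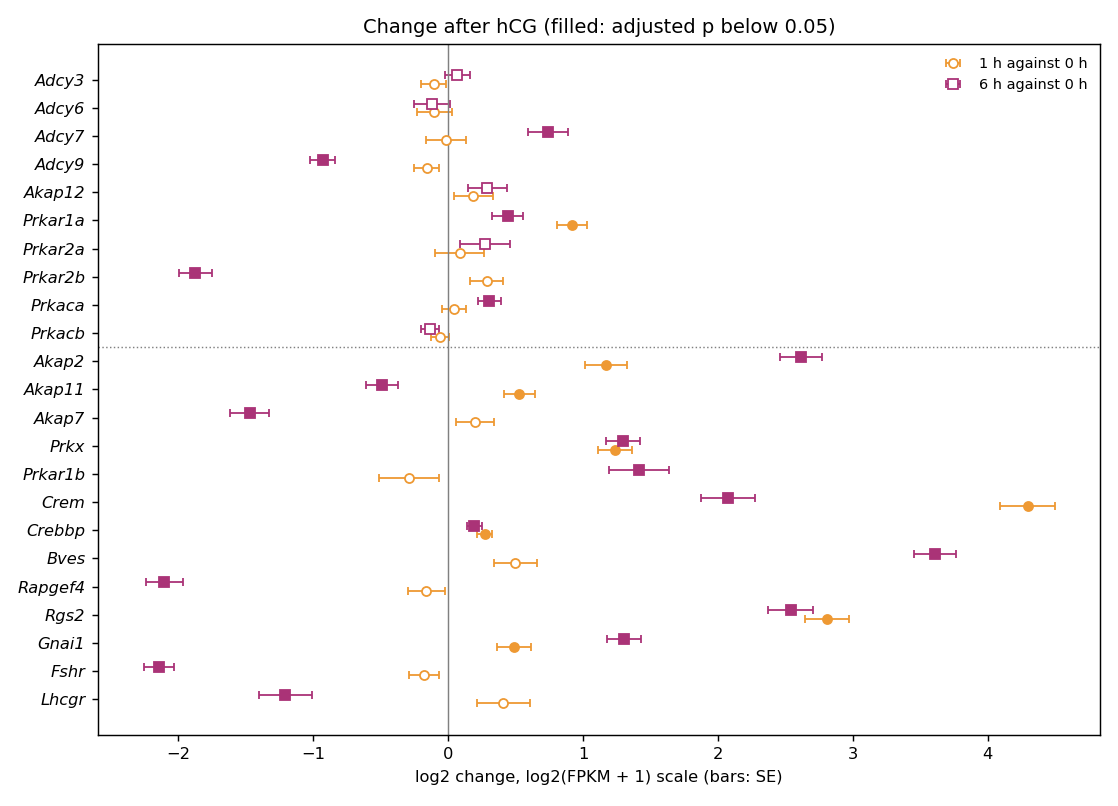
Log2 change on the log2(FPKM + 1) scale (horizontal axis) of the 10 members (above the dotted line) and of the 13 named pathway genes (below it), at 1 h (circles) and 6 h (squares) against 0 h. Bars are the SE and filled marks have a limma adjusted p below 0.05. At 1 h only *Prkar1a* is filled among the members, and at 6 h *Prkar2b* and *Adcy9* lie to the left and *Prkar1a*, *Adcy7* and *Prkaca* to the right.

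Markers of granulosa cells and of other cell types moved with time as well. The sum of 9 granulosa markers lay between 9889 and 10543 FPKM at 0 h, 9802 and 14777 FPKM at 1 h, and 3774 and 4161 FPKM at 6 h. At 6 h against 0 h 8 of the 9 were lower, against 27.9% of all genes, the same direction as *Prkar2b* and *Adcy9*. The sum of 8 theca and stroma markers was 196 to 312 FPKM at 0 h, 260 to 416 FPKM at 1 h and 107 to 134 FPKM at 6 h. At 6 h against 0 h 4 of 8 were lower, against 27.9% of all genes. The largest fall in FPKM was that of *Cyp17a1* (mean 123 to 21.9 FPKM), and *Pdgfra* did not fall (4.83 to 5.04 FPKM). The sum of 8 oocyte markers was 33.8 to 49.6 FPKM at 0 h and 55.4 to 83.7 FPKM at 6 h, with 5 of 6 tested higher, against 28.8% of all genes. The sum of 5 red blood cell genes (4 haemoglobin genes and *Alas2*) was 133 to 202 FPKM at 0 h, 89.7 to 204 FPKM at 1 h and 69.5 to 133 FPKM at 6 h. Of these genes, 2 of 4 tested were lower at 6 h against 0 h, against 27.9% of all genes. Their part in the changes of *Prkar2b*, *Adcy9*, *Adcy7*, *Prkar1a* and *Prkaca* was not tested.

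For each called member, the genes with the most similar course were found among 9120 annotated genes, by the root mean square difference of log2(FPKM + 1) over the 9 libraries after centring on 0 h. The nearest to *Prkar2b* were *Myo6* (0.0672 log2 units), *Psd* (0.145) and *Inhba* (0.165). *Inhba*, which encodes a subunit of activin and inhibin, stood at 2294 ± 120 FPKM at 0 h, 2818 ± 596 at 1 h and 585 ± 69.9 at 6 h. *Prkar1a* was nearest to *Vegfa* (0.0902), *Atp5d* (0.0926) and *Armcx6* (0.102), and *Vegfa*, an angiogenic growth factor gene, stood at 62.0 ± 4.43, 112 ± 15.5 and 80.2 ± 3.70 FPKM. *Adcy9* was nearest to *Pdcd4* (0.0538), *Zranb3* (0.0709) and *Itpkb* (0.0739). *Prkaca* was nearest to *Trim28* (0.0428), *Puf60* (0.0506) and *Rnps1* (0.0558), and *Adcy7* to *Tmod3* (0.0962), *Uhrf1bp1l* (0.112) and *Desi2* (0.117). This scale understates the change of a low gene such as *Adcy7*, so its likeness to more abundant genes does not hold in fold. Between 0 and 6 h the mean of *Adcy7* went from 1.31 to 2.89 FPKM and that of *Tmod3* from 18.4 to 32.2 FPKM.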

How the data were processed

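RNA of granulosa cells was measured by RNA sequencing in 9 libraries. The deposited tables give FPKM per row, and the unit is named per the file headers. HISAT2 2.0.5 and the genome build mm10 are named per the submitters' processing notes. Which program computed FPKM, on which annotation and with which filters, is not given in the sources used here. Each table held 54759 rows, and rows were added up here by gene identifier. In each library 9364 to 9682 rows held values below 0.001 FPKM that were not 0, so single reads cannot be read off, depth is not known and counting intervals are not given.

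The test was limma 3.58.1 (R 4.3.3) on log2(FPKM + 1) values (trended prior variance, 3 group means, 6 residual degrees of freedom, no covariate), on the 14535 genes that reached 1 FPKM in 3 or more of the 9 libraries. P-values were adjusted by Benjamini-Hochberg over all genes within each comparison and genes were called below 0.05. Shares of summed FPKM were compared by two-sided exact permutation tests. The fit was tested on simulated data. Gene coordinates are from GENCODE M21 (mm10) and promoter windows from RefSeq (GRCm38.p6).

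All 10 members are given. From each pathway list, up to 2 called genes with the largest absolute log2 change in each comparison are named, and for each called member the 3 genes of most similar course with a mean of 5 FPKM or more. *Pkig*, the remaining called PKA gene, was named after its values were seen. The members and lists were chosen with earlier results of these data known. Alternatives were the pseudocount, the filter, 2 rescalings, the most abundant row, the samples in the fit, the prior, the replicate block and leaving out each library. A single marker gene is not reported here.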

Additional observations from a re-analysis of the deposited data

How the results depend on the processing

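When each member was refitted under the alternatives, 552 values kept their side of the threshold, 8 lost a call and 4 gained a call. None that was called changed direction, but some small changes that were not called changed sign. For *Prkaca* at 1 h the log2 change was 0.04, and -0.11 with libraries scaled to a common sum. The calls that changed stand in the report, except that *Prkar2a* was called higher at 6 h against 1 h with its most abundant row alone (log2 change 0.28, adjusted p = 0.0210). Leaving out each library in turn gave 1 to 2 called members at 1 h, 5 at 6 h against 0 h and 4 to 5 at 6 h against 1 h. The filter at 5 FPKM removed *Adcy7* and *Akap12*.

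Replicate numbers were not taken as pairs, since the labels give only a shared number. Deviations from the group means correlated at -0.078 to 0.147 in 9 same-numbered pairs (4 above 0.1) and at -0.151 to 0.086 in 18 others (0 above 0.1). With a replicate block, 1, 5 and 5 members were called in the 3 comparisons, as without it, and 1991, 8089 and 7632 of all genes.

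The split of all genes called at 1 h, 1407 higher and 869 lower, was 1002 and 2634 (3636 in all) with libraries scaled to a common sum, which moved the median log2 change by -0.14, and 1142 and 1252 with quantile normalization. On the deposited scale the count of all genes called at 1 h was 2276 with all libraries and rose to 2824 without replicate 2 of 1 h. It was 1199 without replicate 3 of 1 h, 1305 without its replicate 1, and 1424, 1499 and 1389 without replicates 1, 2 and 3 of 0 h. With the most abundant row alone, the *Adcy9* share of cyclases was 55.5, 48.8 and 40.4% and the ratio of regulatory to catalytic FPKM 13.7, 14.7 and 4.005 at 0, 1 and 6 h. Low genes such as *Adcy7* and *Akap12* are limited by an unknown depth.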
